A study of Homo sapiens with 16 samples.

Results

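The loci described here are the genomic neighbourhoods of HOXA13, HOXC13 and HOXD13, the other genes of the HOX13 paralogue group to which HOXB13 belongs. Their members are all peaks of the 12 deposited peak lists that overlapped, by at least 1 bp, a hg19 window of 100 kb around HOXA13 (chr7:27190000-27290000), of 110 kb around HOXC13 (chr12:54280000-54390000) or of 100 kb around HOXD13 (chr2:176910000-177010000). The members number 154 of the 816313 peaks of the 12 lists: 64 at HOXA13, 56 at HOXC13 and 34 at HOXD13. The windows were set by position and not by a limit on any measured value, though earlier results of these data were known.

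The study used 2 human prostate cancer cell lines, LNCaP (androgen-sensitive, derived from a lymph node metastasis) and PC-3 (androgen-independent, derived from a bone metastasis). In LNCaP, HOXB13 was mapped by ChIP-seq, which sequences DNA fragments pulled down with an antibody, in cells infected for 7 days with a HOXB13 short hairpin RNA plus a lentivirus carrying the HOXB13 G84E variant (shHOXB13+G84E), with the hairpin plus wild-type HOXB13 (shHOXB13+WT), with the hairpin alone (shHOXB13), or with the control hairpin vector (pGIPZ). LNCaP HDAC3 ChIP-seq and ATAC-seq, which reads open chromatin, compared shHOXB13 with pGIPZ, and HDAC1 ChIP-seq was made in pGIPZ cells. In PC-3, acetylation of histone H3 at lysine 27 (H3K27ac) compared shHOXB13 with pGIPZ, and HOXB13 was mapped in pGIPZ cells. The infection protocol in the labels speaks of LNCaP, and gives no length of infection for PC-3. Each group held 1 library, and all groups carry a hairpin vector. The 4 LNCaP H3K27ac samples were not analysed here, so the mark cannot be compared between the lines. HOXB13 binding after knockdown in PC-3 was likewise not analysed here, so the knockdown was not checked in that line.

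HOX genes lie in clusters, and their order along a cluster follows the order in which they are used along the body axis. The group 13 genes are the most posterior members: HOXA13 and HOXD13 pattern the digits and the urogenital tract, HOXC13 acts in hair and nail, and HOXB13 is a transcription factor of the prostate lineage. HOX13 proteins bind short AT-rich sites and can bind the HOX clusters themselves. H3K27ac marks active promoters and enhancers, and HDAC1 and HDAC3 are histone deacetylases, HDAC3 being the catalytic subunit of the NCOR/SMRT corepressor complexes. In the RefSeq gene order, HOXA13 lies between HOXA11 with HOXA11-AS on one side and the long noncoding RNA HOTTIP, EVX1-AS and EVX1 on the other. HOXC13 lies between HOXC13-AS and HOXC12, beyond which come the long noncoding RNA HOTAIR and HOXC11. HOXD13 lies between EVX2, a homeobox gene, and HOXD12 with HOXD11.

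The promoters of the genes that name the windows are shown because they are the fixed points of the loci. RefSeq sequences of the 250 bases before the start of the gene, on the gene's own strand (build GRCh38.p14), were found for 2 of the 3 genes. The HOXA13 stretch lies at chr7:27200092-27200341 on the minus strand and the HOXD13 stretch at chr2:176092471-176092720 on the plus strand. These are positions of another build than the hg19 peaks and must not be set against them. Where the genes lie within the hg19 windows was not analysed here.
HOXA13 promoter: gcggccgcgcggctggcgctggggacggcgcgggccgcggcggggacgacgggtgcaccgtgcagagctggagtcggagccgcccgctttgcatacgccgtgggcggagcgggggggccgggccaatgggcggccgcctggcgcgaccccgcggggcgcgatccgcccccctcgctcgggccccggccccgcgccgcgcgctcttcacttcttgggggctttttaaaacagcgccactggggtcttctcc
HOXD13 promoter: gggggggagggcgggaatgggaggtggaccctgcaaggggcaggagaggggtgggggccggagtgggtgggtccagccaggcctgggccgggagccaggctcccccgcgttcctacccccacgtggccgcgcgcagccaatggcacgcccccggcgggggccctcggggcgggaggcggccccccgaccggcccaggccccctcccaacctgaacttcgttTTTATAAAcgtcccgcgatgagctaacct
HOXC13 was not in the promoter table. Capitals mark matches, on either strand, to the short AT-rich core TTTAT, one of 3 motifs searched after the sequences had been seen. The HOXD13 stretch held 2 overlapping matches (TTTAT and its reverse complement ATAAA, at 29 and 26 bases before the start), and the HOXA13 stretch held none. The core occurs in 32.7% of 35116 RefSeq promoters of the same length. The longer words CAATAAA and TCGTAAA were in neither stretch, and occur in 3.67% and 0.444% of all promoters. Both promoters are GC-rich, with 78% GC and 40 CpG dinucleotides at HOXA13 and 74% GC and 21 CpG at HOXD13, where the median promoter has 58% GC and 11 CpG. Of all promoters, 5.67% have at least the GC content of HOXA13 and 2.16% at least its CpG count, against 12.3% and 30.2% for HOXD13.

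Libraries held between 13.5 M tags (PC-3 shHOXB13 H3K27ac; M for mega) and 47.2 M tags (LNCaP shHOXB13 HOXB13). Each value below is the authors' normalized tag count, the tags in a peak scaled to 10000000 tags per library, and it could be turned back into whole tags in every list. Brackets give exact Poisson or Clopper-Pearson 95% intervals of those tags, which cover counting error only, not the spread between cultures. Since each group held a single library, the groups could not be tested against each other. A value is called higher or lower where its interval excludes no difference. A list holds called peaks only, so a site without a peak has no value rather than a value of 0. Overlapping peaks of the 10 HOXB13, HDAC and ATAC-seq lists were merged into 65 sites, numbered along each window as A1 to A24, C1 to C28 and D1 to D13. Of these, 32 were called in 1 list and 33 in 2 or more, and 55 had a HOXB13 peak in some library.

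The first comparison set HOXB13 in LNCaP pGIPZ cells against HOXB13 in PC-3 pGIPZ cells, and each line had its own distribution over the windows. LNCaP had 8 peaks at HOXA13, 10 at HOXC13 and 2 at HOXD13, and PC-3 had 9, 2 and 4. The HOXC13 window had more called peaks in LNCaP, the HOXA13 window had peaks in both lines with the strongest in PC-3, and at HOXD13 the lines had no peak in common. Many LNCaP peaks at HOXC13 were weak: with a normalized tag count of at least 8, LNCaP had 3 peaks there and PC-3 had 2. That floor lies above the median of the LNCaP list (7.28) and below that of the PC-3 list (12.7). It therefore narrows the difference by construction. With the better-scoring 50% of each list, LNCaP had 5 peaks at HOXC13 and PC-3 had 2. The summed normalized tag count at HOXA13 was 124.2 (112.8 to 136.6) in LNCaP and 455.9 (431.0 to 481.7) in PC-3. At HOXC13 it was 75.4 (66.5 to 85.1) in LNCaP and 30.8 (24.5 to 38.0) in PC-3, but over peaks of at least 8 the sum was 34.9 (29.0 to 41.8) in LNCaP and 30.8 in PC-3, with overlapping intervals. At HOXD13 the sum was 16.0 (12.1 to 20.8) in LNCaP and 69.8 (60.3 to 80.3) in PC-3. These sums depend on the number of peaks called and on the tag count of each. At HOXA13 the numbers were close (8 and 9), and A7 (178.9) and A8 (91.5) were the largest parts of the PC-3 sum. The covered length was 2320 bp in LNCaP and 3510 bp in PC-3 at HOXA13, 2900 and 780 bp at HOXC13, and 580 and 1560 bp at HOXD13. The mean per peak was 15.5 in LNCaP and 50.7 in PC-3 at HOXA13, 7.54 and 15.4 at HOXC13, and 8.01 and 17.4 at HOXD13. Over the whole lists, the median peak had 7.28 in LNCaP and 12.7 in PC-3. The HOXB13 antibody came from Abcam for LNCaP and from Santa Cruz for PC-3, and peaks were 290 bp wide in LNCaP and 390 bp in PC-3. The cell line and the antibody cannot be told apart in these ratios.

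**Figure D1:**
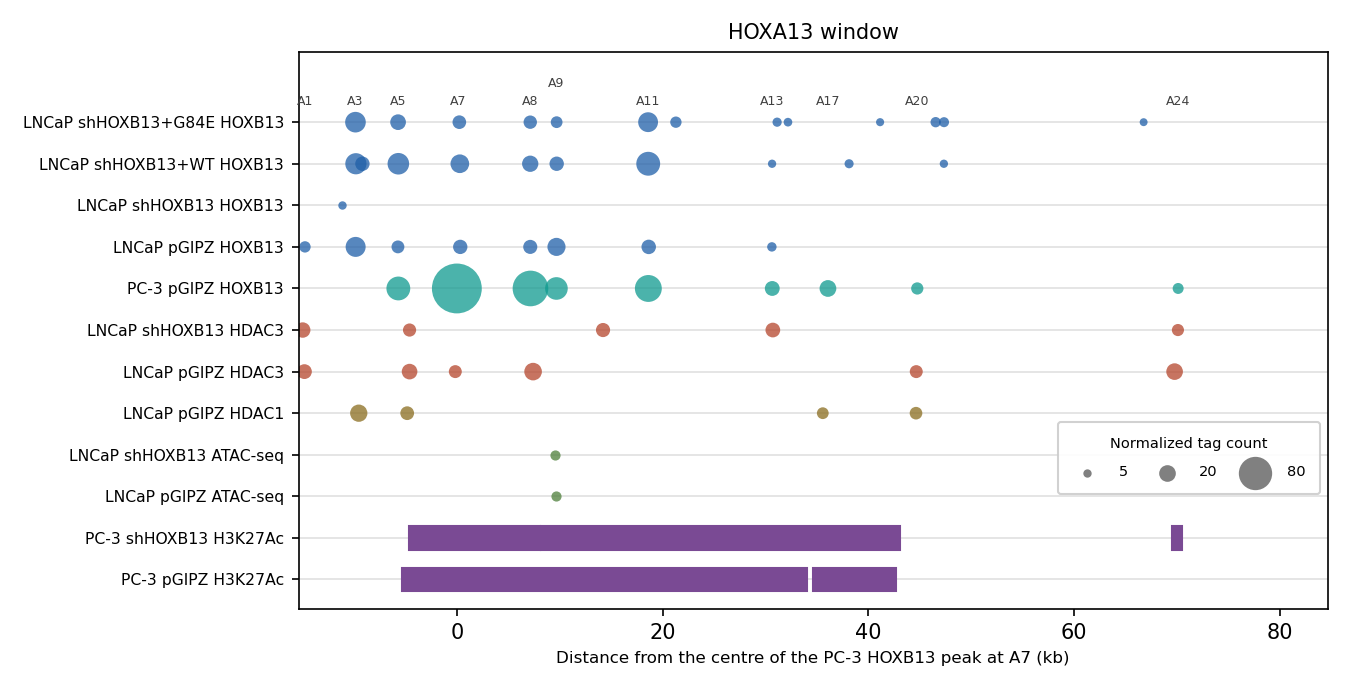
Peaks in the HOXA13 window, 1 row per library. Points are peak centres on a kb scale measured from the centre of the PC-3 HOXB13 peak at A7, with area proportional to the normalized tag count, and bars are called H3K27ac regions to scale (gaps of 124 and 158 bp in the shHOXB13 row are too narrow to see); labels name sites with a HOXB13 peak in LNCaP pGIPZ or PC-3. The PC-3 peaks at A7 (178.9) and A8 (91.5) stand over the acetylated span, and LNCaP has peaks of 14.8 and 14.3 at these sites; at A7 the peaks of the lines overlap by 10 bp, with centres 330 bp apart.

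As background, the autosomes and chromosome X were cut into tiles of the same length as each window. In LNCaP, a 100 kb tile held 2.99 HOXB13 peaks on average, and 4.19% of 30343 tiles held 8 or more, as HOXA13 did, while 68.1% held 2 or more, as HOXD13 did. Of 27583 tiles of 110 kb, with 3.29 peaks on average, 1.40% held 10 or more, as HOXC13 did. In PC-3, with 2.33 peaks per 100 kb tile, 1.35% held 9 or more (HOXA13) and 28.0% held 4 or more (HOXD13). With 2.56 peaks per 110 kb tile, 57.2% held 2 or more in PC-3 (HOXC13). By the number of called peaks, the HOXA13 window was in the upper tail of tiles in both lines, and the HOXC13 window in LNCaP but not in PC-3.

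Within the HOXA13 window, 6 of the 8 LNCaP peaks and 6 of the 9 PC-3 peaks overlapped. At 5 of these sites the peak centres lay 6 to 39 bp apart, but at A7 the peaks overlapped by 10 bp with centres 330 bp apart, so that A7 was not shared when centres had to lie within 100 bp. Site A7 (chr7:27204991-27205852) carried the strongest HOXB13 peak of the 3 windows, with 178.9 (163.5 to 195.4) in PC-3, rank 147 of 70766 peaks in that list. The neighbouring LNCaP control peak (chr7:27205562-27205852, beside chr7:27205182-27205572 in PC-3) had 14.8 (11.1 to 19.5), a log2 ratio of LNCaP over PC-3 of −3.59 (−4.04 to −3.17). This ratio sets nearly adjacent intervals against each other, and the LNCaP tags at the centre of the PC-3 peak have no value in the lists. Only 0.894% of the 19250 HOXB13 sites shared by the 2 lines had a ratio that low or lower. Site A8 (chr7:27212337-27213022) had 14.3 (10.5 to 18.9) in LNCaP and 91.5 (80.5 to 103.5) in PC-3, a log2 ratio of −2.68 (−3.15 to −2.24). That peak was in the top 1.19% of the PC-3 list, and 4.88% of shared sites had a ratio that low or lower.

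Sites A5 and A11 differed between the lines by a smaller amount. At A5 (chr7:27199495-27199885) the tag count was 11.9 in LNCaP and 40.9 in PC-3, log2 ratio −1.78 (−2.33 to −1.25). At A11 (chr7:27223794-27224184) it was 15.1 in LNCaP and 52.1 in PC-3, also −1.78 (−2.27 to −1.32). These ratios sit inside the main body of the shared sites, as 17.3% and 17.1% were that low or lower. A13 (chr7:27235838-27236271) had 6.40 in LNCaP and 15.9 in PC-3, log2 ratio −1.31 (−2.12 to −0.54). At A9 (chr7:27214860-27215250), the one site of the HOXA13 window that also had an ATAC-seq peak, the tag count was 23.6 (18.7 to 29.3) in LNCaP and 36.9 (30.1 to 44.8) in PC-3, log2 ratio −0.65 (−1.08 to −0.21). Among the sites that differed beyond counting error, A9 was the one whose direction depended on the scale: relative to the median of all shared sites its log2 ratio was 0.080.

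The general shift between the lists is part of each of these ratios. Over all shared sites the median log2 ratio was −0.73, the log2 ratio of peak widths was −0.43, and the share of tags in peaks was 9.17% in LNCaP and 13.92% in PC-3. Relative to the median of all shared sites the log2 ratio was −2.87 at A7, −1.96 at A8, −1.06 at A11, −1.05 at A5 and −0.59 at A13. Per bp of peak it was −3.16, −2.25, −1.36, −1.35 and −0.89 at the same sites. In these windows 5 of 7 shared sites had a log2 ratio of −1 or below, where 39.2% of all shared sites did.

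**Figure D2:**
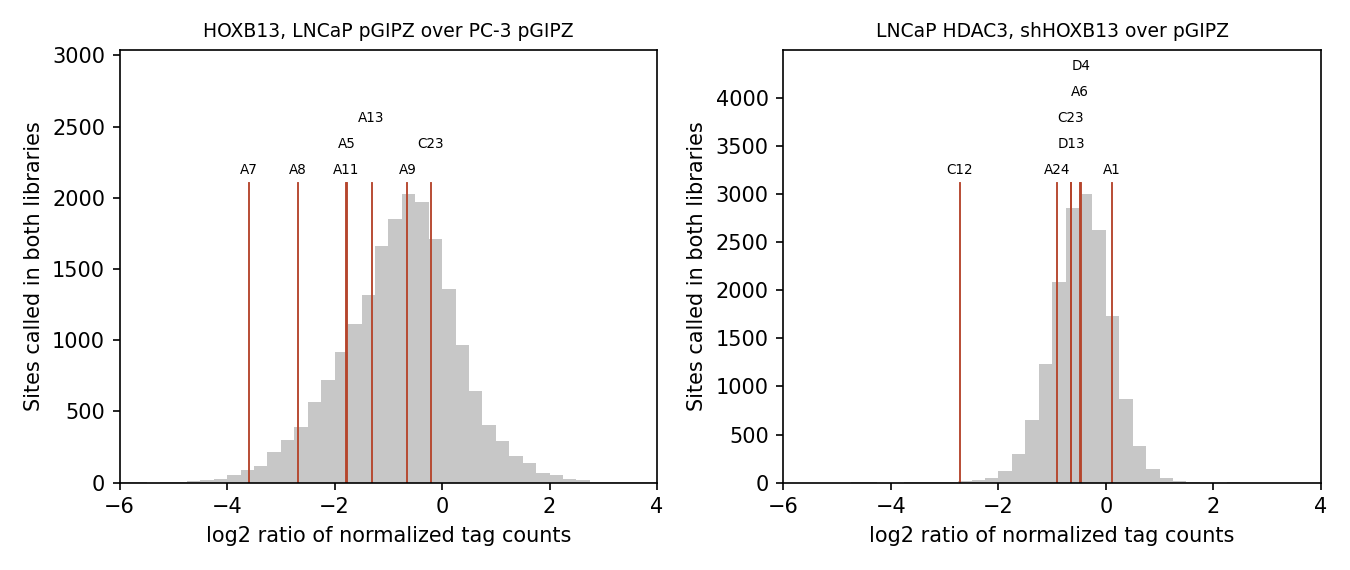
Histograms of log2 ratios of normalized tag counts over all sites called in both libraries, with the sites of the HOX13 windows as labelled lines: HOXB13 in LNCaP pGIPZ over PC-3 pGIPZ (left) and LNCaP HDAC3 in shHOXB13 over pGIPZ (right). A7 at −3.59 (peaks overlapping by 10 bp) lies in the lower tail on the left, and C12 at −2.72 lies in the lower tail on the right. The other HDAC3 sites lie in the main body of their histogram, from −0.91 at A24 to 0.12 at A1.

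The remaining HOXA13 peaks were called in 1 of the control lists. LNCaP had A1 (chr7:27190214-27190797) with 9.31 and A3 (chr7:27195382-27196001) with 28.8 (23.4 to 35.1), its strongest peak in the 3 windows, and PC-3 had no peak at either. PC-3 had A17 (chr7:27241250-27241640) with 20.2, A20 (chr7:27249794-27250323) with 10.8 and A24 (chr7:27274904-27275679) with 8.68, without a LNCaP HOXB13 peak. The LNCaP peaks of the window ranged over 6.40 to 28.8 and the PC-3 peaks over 8.68 to 178.9.

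In the HOXC13 window, 1 of 10 LNCaP peaks and 1 of 2 PC-3 peaks were at the same site. That site was C23 (chr12:54372618-54373210), with 16.6 (12.6 to 21.5) in LNCaP and 19.2 (14.4 to 25.1) in PC-3. Its log2 ratio of −0.21 (−0.77 to 0.36) did not exceed counting error, and on the other scales it was 0.22 per bp and 0.52 relative to the median of shared sites. The other LNCaP peaks were weak, ranging over 4.66 to 9.60, with C17 (chr12:54348109-54348834) the highest at 9.60 and C22 (chr12:54372199-54372502) next at 8.73. The PC-3 peak without a LNCaP counterpart was C28 (chr12:54384092-54384482) at 11.6. Of the 9 LNCaP peaks without a PC-3 peak here, 7 were below 8.68, the lowest PC-3 value in the 3 windows.

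In the HOXD13 window no site was shared, with 2 LNCaP and 4 PC-3 peaks. LNCaP had D1 (chr2:176941739-176942153) at 8.73 and D8 (chr2:176986676-176987020) at 7.28. PC-3 had D5 (chr2:176968892-176969282) at 25.7 (20.05 to 32.4), D12 (chr2:177000978-177001368) at 17.4, D11 (chr2:176995316-176995706) at 14.8 and D10 (chr2:176991748-176992207) at 11.9. By the authors' deposited fold, D5 stood 28.2-fold above its local background in PC-3, and A7 stood 21.2-fold above. Over the 3 windows, 7 of 20 LNCaP peaks had a PC-3 peak and 7 of 15 PC-3 peaks had a LNCaP peak, where 21.1% and 27.2% did over the whole lists.

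**Figure D3:**
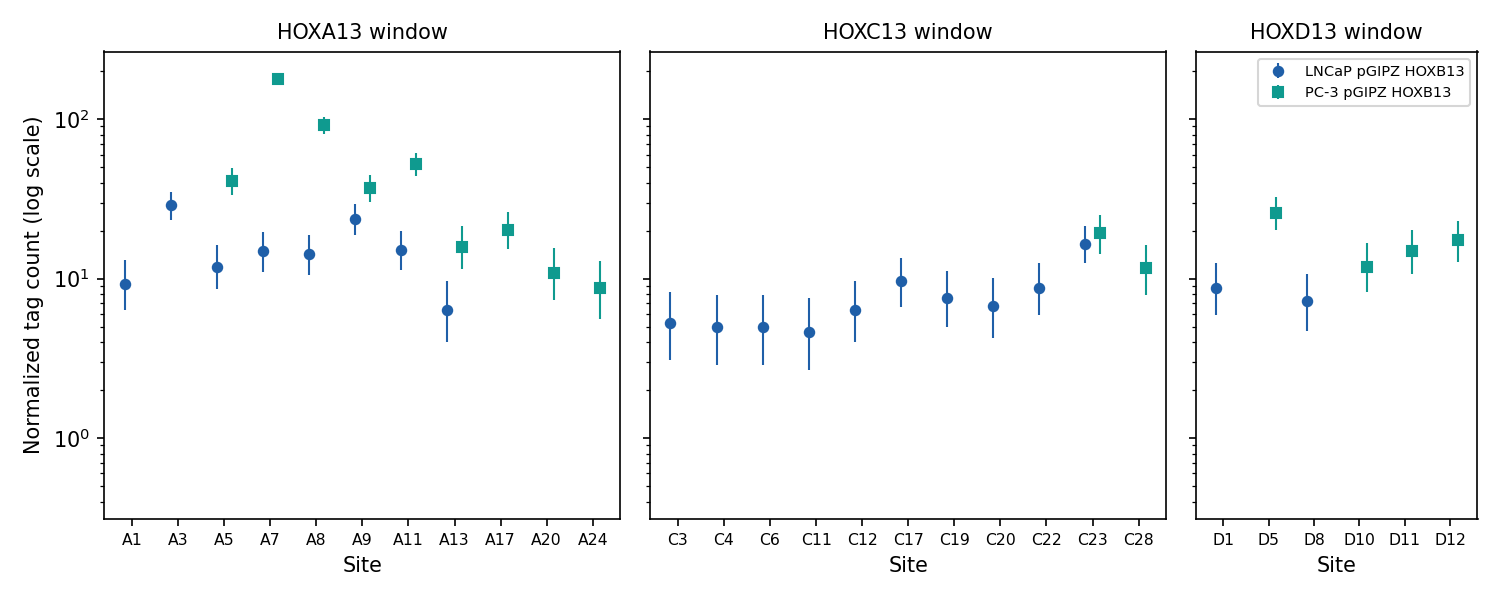
Normalized tag count (log scale) of every HOXB13 peak of the LNCaP pGIPZ list (circles) and the PC-3 pGIPZ list (squares) in the 3 windows, by site, with exact Poisson 95% intervals as bars. A site with 1 symbol had a peak in that line alone; at HOXA13 the PC-3 values at A7 and A8 (178.9 and 91.5) lie above all others, and at HOXD13 no site has both symbols.

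The second comparison lowered the precipitated protein in LNCaP. None of the 20 control HOXB13 peaks of the windows was called again in the shHOXB13 library (0 of 20), where 1.48% of all control peaks were. The shHOXB13 library was the most deeply sequenced, at 47.2 M tags against 34.4 M in pGIPZ, but had 2.13% of tags in peaks against 9.17%. It had 4 peaks of its own at other positions: A2 (chr7:27194091-27194347) with 5.09, C1 with 4.24, C5 with 3.81 and D6 with 4.24. Of all 22864 peaks of the shHOXB13 list, 5.92% met a control peak. A2 was above the median of that list, 4.87, and the other 3 were below it.

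Wild-type HOXB13 put back after knockdown was called at 16 of the 20 control peaks (7 of 8 at HOXA13, 7 of 10 at HOXC13 and 2 of 2 at HOXD13), where 67.4% of all control peaks had a WT peak. G84E, the variant linked to inherited prostate cancer risk, was called at 14 of 20 (6, 6 and 2), where 63.2% were over the whole list. Neither form had a peak at A1, C4 or C11, whose control values were 9.31, 4.95 and 4.66. At C17 both forms had a peak that did not touch the control peak but was joined to it through an HDAC3 peak. A WT peak without a G84E peak was found at A13 (4.97 in WT, 6.40 in pGIPZ) and at C19 (9.68 in WT, 7.57 in pGIPZ).

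WT tag counts exceeded those of the control at 14 of the 16 sites, beyond counting error at 9. The log2 ratio of WT over pGIPZ was at least 1 at 7 of the 16 sites, where 10.3% of all shared sites reached that, and the median was 0.66, against 0.17 over all 61639 shared sites. D8 had 23.6 (19.1 to 28.8) with WT and 7.28 (4.71 to 10.7) in pGIPZ, a log2 ratio of 1.70 (1.05 to 2.39). A5 had 33.5 with WT and 11.9 in pGIPZ (log2 ratio 1.49, 0.98 to 2.03). A11 had 41.0 with WT and 15.1 in pGIPZ (1.44, 0.98 to 1.92). The others were C3 (12.7 and 5.24, log2 ratio 1.27), C20 (13.9 and 6.69, 1.05), D1 (18.1 and 8.73, 1.05) and C22 (17.6 and 8.73, 1.01). By window the median was 0.42 at HOXA13, 0.57 at HOXC13 and 1.38 at HOXD13. A3, the strongest control site, had 32.3 in WT and 28.8 in pGIPZ, a log2 ratio of 0.16 (−0.22 to 0.56) that was −0.0058 relative to the median of all shared sites. A9 went the other way, with 14.9 (11.4 to 19.2) in WT and 23.6 (18.7 to 29.3) in pGIPZ, a log2 ratio of −0.66 (−1.17 to −0.16).

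**Figure D4:**
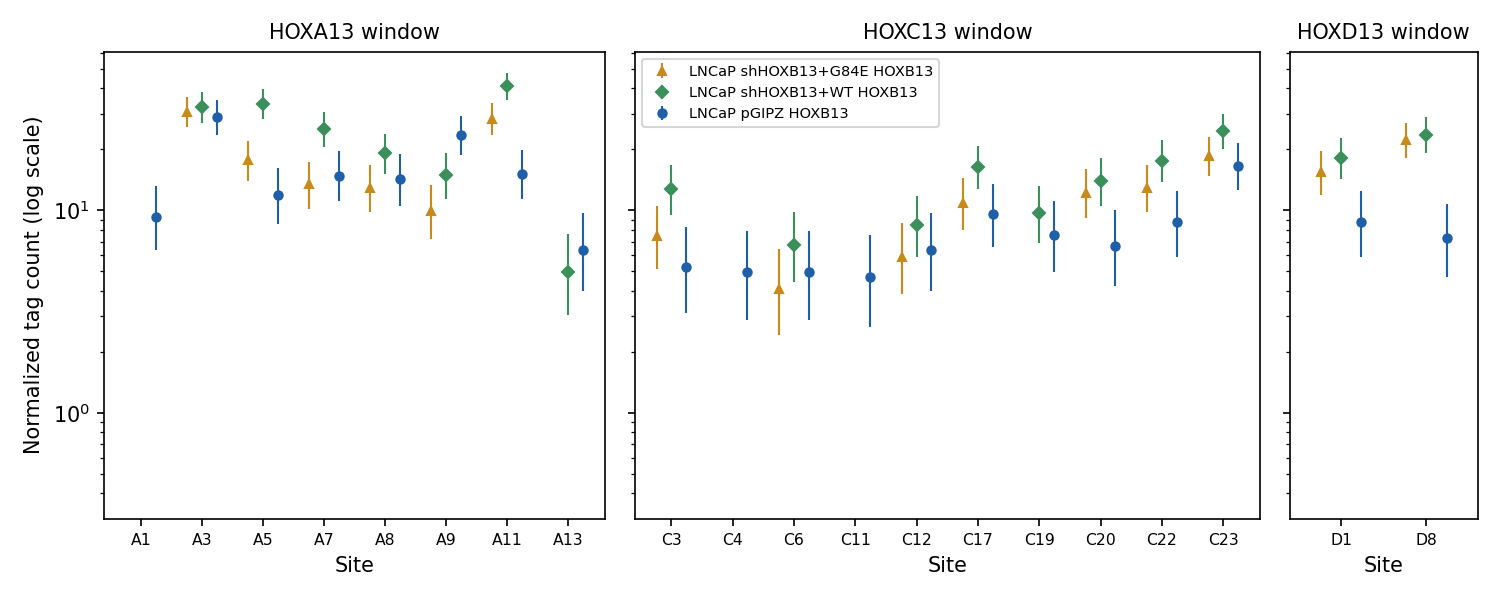
Normalized tag count (log scale) in LNCaP at the 20 sites with a control HOXB13 peak, for shHOXB13+G84E (triangles), shHOXB13+WT (diamonds) and pGIPZ (circles), with exact Poisson 95% intervals as bars; a missing symbol means that no peak was called. WT and G84E stand above pGIPZ at D8 (23.6, 22.2 and 7.28), and pGIPZ stands above both at A9 (9.96 in G84E, 14.9 in WT and 23.6 in pGIPZ).

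G84E tag counts exceeded those of the control at 9 of 14 sites, beyond counting error at 5. A9 had 9.96 (7.24 to 13.4) with G84E and 23.6 in pGIPZ, a log2 ratio of −1.24 (−1.81 to −0.70), and 1.33% of all sites shared by these lists were that low or lower. D8 had 22.2 with G84E and 7.28 in pGIPZ (log2 ratio 1.61, 0.96 to 2.30). The G84E ratio over pGIPZ was 0.90 at A11, 0.87 at C20, 0.82 at D1 and 0.57 at A5, with a median of 0.34 over the 14 sites, against 0.016 over all shared sites.

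G84E was then set against WT at the 23 sites called in both. The log2 ratio of G84E over WT was below 0 at 19 of 23 sites, with an interval below 0 at 7 and above 0 at none. The median was −0.51, against −0.13 over all 105062 shared sites. Relative to that general median the interval was below 0 at 3 sites (A5, A7 and A11). The largest differences were at A5, with 17.7 in G84E and 33.5 in WT (log2 ratio −0.93, −1.35 to −0.51), and at A7, with 13.4 in G84E and 25.1 in WT (−0.91, −1.40 to −0.43). C3 had 7.47 in G84E and 12.7 in WT (−0.76, −1.44 to −0.10), and A11 had 28.3 in G84E and 41.0 in WT (−0.53, −0.88 to −0.19). None of the 23 sites reached −1, which 2.86% of all shared sites did. At A3 (30.6 and 32.3) and D8 (22.2 and 23.6) the forms did not differ beyond counting error, with log2 ratios of −0.079 (−0.44 to 0.28) and −0.089 (−0.51 to 0.33). Relative to the median of all shared sites these turned to 0.053 at A3 and 0.044 at D8, and no other of the 19 changed sign. The highest ratio, 0.54 at A22 (7.24 in G84E and 4.97 in WT), was within counting error.

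The re-expressed forms also had peaks at 26 sites without a control peak, 9 at HOXA13, 11 at HOXC13 and 6 at HOXD13. Both forms were called at 8 of them, G84E without WT at 8 and WT without G84E at 10. Over the windows 14 of 31 G84E peaks and 16 of 35 WT peaks met a control peak, where 30.1% and 32.3% did over the whole lists. Of the same peaks, 23 of 31 G84E peaks met a WT peak and 23 of 35 WT peaks met a G84E peak, where 54.8% and 55.0% did. The strongest of the added sites were C21 (chr12:54367698-54367997; 10.4 in G84E and 16.4 in WT), A4 (chr7:27196062-27196336; 14.9 in WT) and D2 (chr2:176951345-176951666; 7.92 in G84E and 9.68 in WT). The WT values at such sites ranged over 4.97 to 14.9 at HOXA13, 4.47 to 16.4 at HOXC13 and 4.72 to 9.68 at HOXD13. The G84E values ranged over 4.53 to 9.28, 4.53 to 10.4 and 4.53 to 8.37. These libraries had 44.2 M (G84E) and 40.3 M (WT) tags against 34.4 M in pGIPZ, and 15.64%, 17.12% and 9.17% of tags in peaks; the part of these differences in the added sites was not tested.

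Some of the sites that only PC-3 had among the control lists had a called peak in LNCaP once a form was re-expressed. The LNCaP control has no value at these sites, so a gain of binding is not shown. Of 8 such sites, 3 had a peak of WT or G84E, all in the HOXD13 window. D5 had 4.53 in G84E, 6.46 in WT and 25.7 in PC-3; the log2 ratio over PC-3 was −2.50 (−3.30 to −1.77) for G84E and −1.99 (−2.70 to −1.32) for WT. D10 had 8.37 in G84E, 6.70 in WT and 11.9 in PC-3. D12 had 5.96 in WT and 17.4 in PC-3, with no G84E peak. Over the 3 windows 8 of 15 PC-3 peaks met a G84E peak and 10 of 15 met a WT peak, where 36.0% and 38.9% of all PC-3 peaks did. These counts and shares include PC-3 peaks with a LNCaP control peak. The share among all PC-3 peaks without a control peak was not analysed here.

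Both deacetylases had more peaks at HOXA13 than in the other windows in LNCaP. HDAC3 had 5 peaks in shHOXB13 and 6 in pGIPZ cells at HOXA13, 3 and 4 at HOXC13, and 2 and 3 at HOXD13. HDAC1 in pGIPZ cells had 4, 2 and 1. Tiles with at least as many HDAC3 peaks made up 2.81% (shHOXB13) and 1.14% (pGIPZ) of all tiles for HOXA13, 16.2% and 8.85% for HOXC13, and 27.1% and 15.3% for HOXD13. For HDAC1 these shares were 2.48%, 14.5% and 30.8%. In control cells, 5 of 13 HDAC3 peaks overlapped a HOXB13 peak (A1, A8, C12, C17 and C23), where 36.1% of all HDAC3 peaks did. None of the 7 HDAC1 peaks overlapped a HOXB13 peak (0 of 7), where 10.7% of all HDAC1 peaks did; at A3 the HDAC1 peak (21.5) began just past the end of the control HOXB13 peak and overlapped the WT peak. Of the 7 HDAC1 peaks, 3 overlapped an HDAC3 peak (A6, A20 and D4), where 42.4% did over the list.

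The strongest HDAC3 peak of the windows was at C12 (chr12:54332135-54332695) and overlapped HOXB13 peaks of 5.88 in G84E, 8.44 in WT and 6.40 in pGIPZ. HDAC3 at C12 was 22 (16.7 to 28.5) in shHOXB13 and 145.6 (130.0 to 162.6) in pGIPZ, where it ranked 159 of 33964 peaks. The log2 ratio was −2.72 (−3.15 to −2.32), and it was −2.36 per bp and −2.28 relative to the median of all shared sites. Of the 16184 shared HDAC3 sites 0.167% had a ratio that low or lower. C12 also carried ATAC-seq peaks of 9.03 (5.72 to 13.5) in shHOXB13 and 6.92 (4.48 to 10.2) in pGIPZ, a log2 ratio of 0.38 (−0.50 to 1.26) that did not exceed counting error. The authors' fold over the local background for HDAC3 at C12 was 15.0 in shHOXB13 and 51.6 in pGIPZ.

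At the other HDAC3 sites the libraries differed less. Over the windows 7 of 13 control HDAC3 peaks were called again, where 47.7% were over the list, and C12 was the one of 7 with a log2 ratio of −1 or below, where 15.2% of shared sites were. A24 had 10.6 in shHOXB13 and 19.9 in pGIPZ, log2 ratio −0.91 (−1.65 to −0.19), but these peaks overlapped by 94 bp with centres 323 bp apart. The other 5 (A1, A6, C23, D4 and D13) had log2 ratios from −0.65 to 0.12 with intervals that included 0, around the list's median of −0.44. The HDAC3 control peaks at A7 (12.1), A8 (22.3) and A20 (12.1), at C17 (10.7) and C27 (14.8), and at D3 (10.7) had no peak after knockdown. Peaks called in shHOXB13 alone were at A10 (14.4), A13 (15.6) and C10 (10.3). Over the windows 7 of 10 shHOXB13 HDAC3 peaks met a control HDAC3 peak, where 52.2% did over the list. The HDAC3 libraries also differed in peak width, 365 bp in shHOXB13 and 471 bp in pGIPZ, in estimated fragment length, 364 and 146 bp, and in the share of tags in peaks, 5.08% and 7.63%.

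ATAC-seq had 4 peaks in the windows in shHOXB13 and 3 in pGIPZ. A 100 kb tile held 0.979 peaks on average in shHOXB13 and 1.21 in pGIPZ, and 43.8% and 45.6% of tiles held 1 or more, as HOXA13 and HOXD13 did. Of the 3 control peaks, 2 were called again (A9 and C12), where 50.0% were over the list, and the same 2 had a control HOXB13 peak, where 26.1% of ATAC-seq peaks did. A9 had 7.46 in shHOXB13 and 7.47 in pGIPZ, log2 ratio −0.0029 (−0.93 to 0.90). The third control peak was at D3 (chr2:176952707-176953223) with 3.04, and the shHOXB13 library had further peaks at C14 (4.32) and D13 (5.10).

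**Figure D5:**
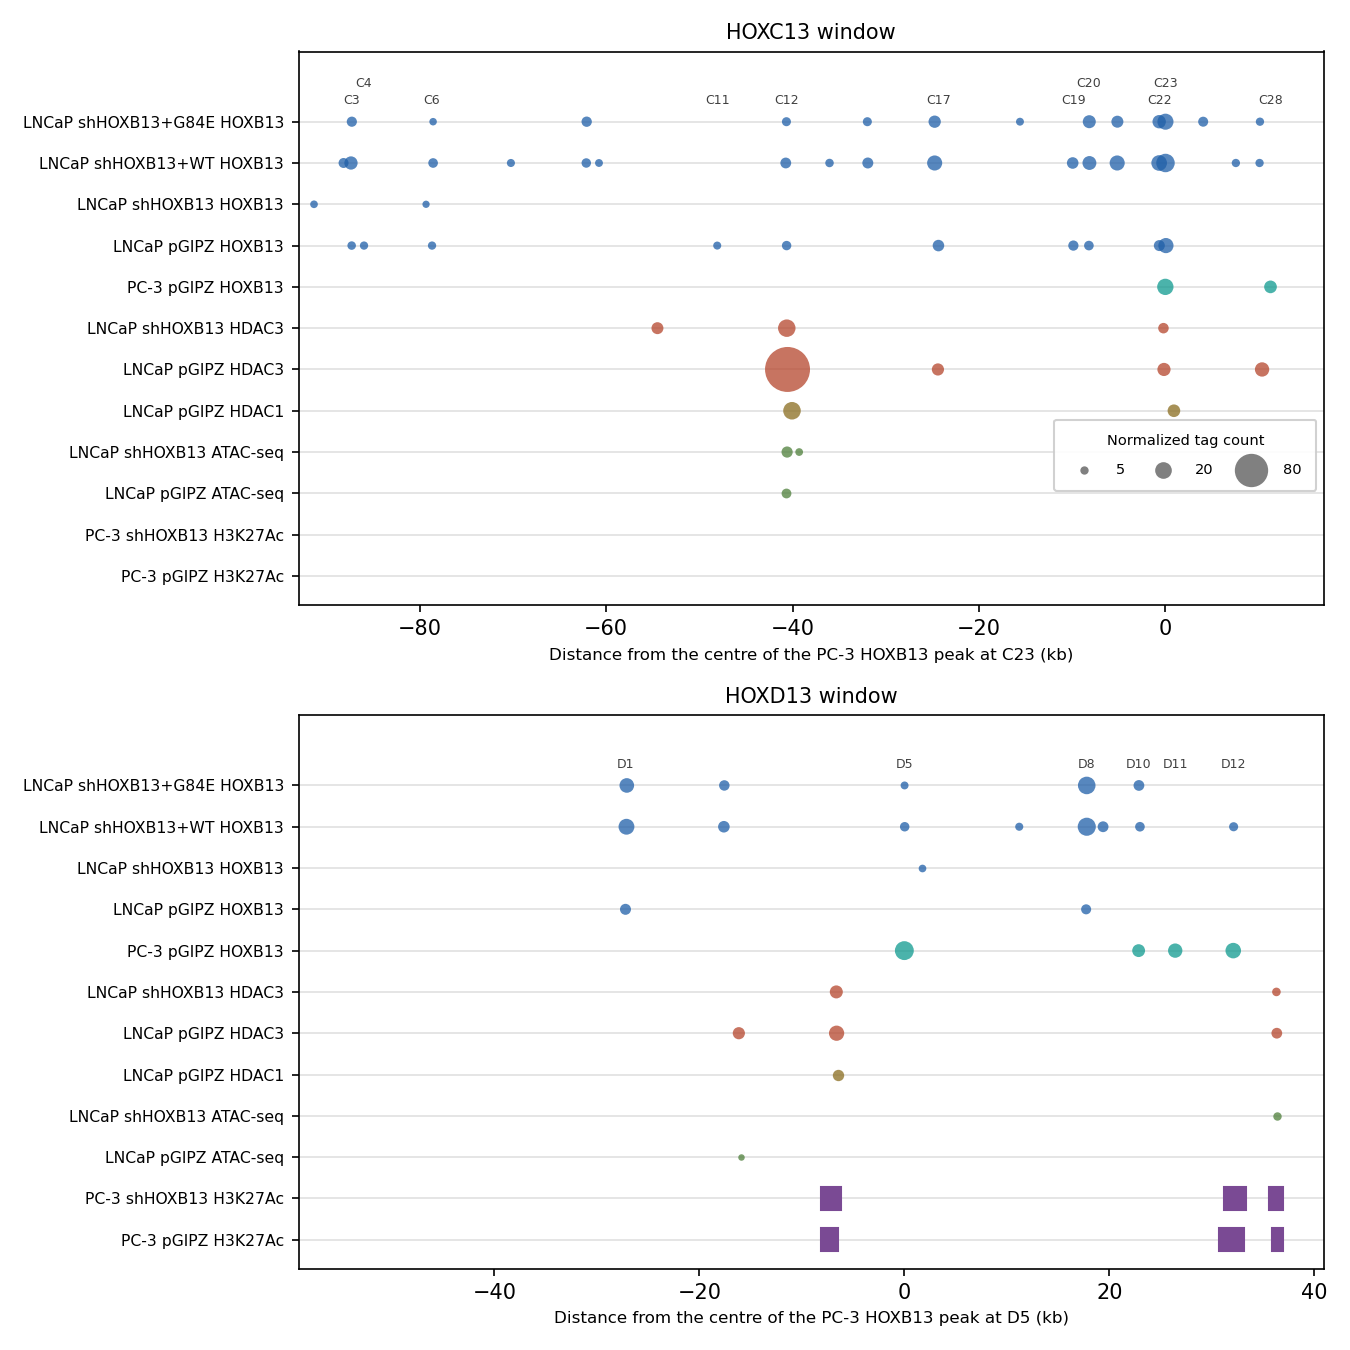
Peaks in the HOXC13 window (top) and the HOXD13 window (bottom), drawn as in the map of the HOXA13 window with the same point scale; distance is measured from the centre of the PC-3 HOXB13 peak at C23 and at D5. The HDAC3 peak at C12 (145.6 in pGIPZ) is the largest point, HOXB13 points of LNCaP fill the HOXC13 window where PC-3 has 2, and no H3K27ac region lies in the HOXC13 window.

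The last comparison was of H3K27ac in PC-3. The HOXA13 window held an acetylated span of 47.7 kb in shHOXB13 and 48.0 kb in pGIPZ cells, the HOXC13 window held no called region in either, and the HOXD13 window held 3 short regions in each. Called regions covered 48.4% of the HOXA13 window in shHOXB13 and 47.5% in pGIPZ, and 5.40% and 5.07% of the HOXD13 window, where they covered 4.03% and 3.95% of the genome. The nearest regions to the HOXC13 window ended 56.8 kb (shHOXB13) and 59.4 kb (pGIPZ) before it and began 192.1 and 191.9 kb after it. In pGIPZ cells the HOXA13 span was made of a region of 39.3 kb (chr7:27200079-27239416, 1593.9 normalized tags), the 28th longest of 50352, and one of 8.12 kb (chr7:27239949-27248068, 356.9), with a gap of 533 bp. In shHOXB13 cells it was made of 3 regions (chr7:27200766-27213477, 851.2; chr7:27213601-27239632, 1208.3; chr7:27239790-27248459, 435.6) with gaps of 124 and 158 bp. Over all called regions of the HOXA13 window, the density was 51.9 normalized tags per kb in shHOXB13 and 41.1 in pGIPZ, where the median region had 18.9 and 16.7.

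Acetylation of the HOXA13 span was higher in the knockdown library by about as much as the lists as a whole. The sum over the window was 2512.1 in shHOXB13 and 1950.8 in pGIPZ, a log2 ratio of 0.36 (0.29 to 0.44), and relative to the median of all loci it was 0.097. The median log2 ratio over 37733 loci called in both was 0.27, with 46.24% of tags in peaks in shHOXB13 and 38.87% in pGIPZ. None of the 5 loci of the windows called in both reached a log2 ratio of 1 (0 of 5), where 8.44% of all loci did. A further region at chr7:27274864-27275864 (17.0), over site A24, was called in shHOXB13 alone.

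In the HOXD13 window the 3 loci did not move together. The locus at chr2:176960955-176962922, over site D4, had 65.1 in shHOXB13 and 37.4 in pGIPZ, log2 ratio 0.80 (0.30 to 1.31) and 0.53 relative to the median of all loci. The locus at chr2:176999764-177002378, over the PC-3 HOXB13 site D12, had 48.8 in shHOXB13 and 68.2 in pGIPZ, log2 ratio −0.48 (−0.95 to −0.021) and −0.75 relative to that median. The locus at chr2:177004662-177006012, over D13, had 23.7 in shHOXB13 and 16.7 in pGIPZ, and its log2 ratio of 0.50 (−0.30 to 1.32) did not exceed counting error. The window's sum had a log2 ratio of 0.17 (−0.13 to 0.47), which was −0.098 relative to the median of all loci. With the better-scoring 50% of regions it was 1.07, but that limit was set list by list and kept 2 regions in each. Those kept were the regions of 65.1 and 48.8 in shHOXB13 and of 37.4 and 16.7 in pGIPZ. They are not the same loci, so 1.07 is not a change at matched loci.

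The number of PC-3 HOXB13 peaks on this mark depends on how much of each window the mark covers. In pGIPZ cells it covered 47.5% of the HOXA13 window, 5.07% of the HOXD13 window and none of the HOXC13 window. No HOXC13 peak could therefore lie on it. Placement beyond this coverage was not tested. At HOXA13, 6 of 9 PC-3 HOXB13 peaks lay in an H3K27ac region of pGIPZ cells (A7, A8, A9, A11, A13 and A17), at HOXD13 1 of 4 (D12), and at HOXC13 0 of 2, where 34.5% of all PC-3 HOXB13 peaks did. A5, with 40.9 in PC-3, lay outside, before the start of the span, and D5, the strongest PC-3 peak at HOXD13, also lay outside any called region.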

How the data were processed

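The submitters' processing notes name Bowtie2, HOMER 4.2 and hg19. Peaks were called by the authors library by library with findPeaks, per the file headers, without an input library, at a false discovery rate of 0.001 for the 10 factor-style lists. Factor-style peaks have 1 width per list and had to stand 4-fold above the surrounding 10000 bp. The 2 H3K27ac lists used the histone style, which joins windows of 1000 bp. The deposited signal is the normalized tag count per 10000000 tags, per the file headers. The authors' score ranked peaks in 1 alternative, and the authors' fold over the local background (a ratio) was used only to describe peaks.

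From these, whole tags were recovered with the header totals (every value within 0.236 of a whole number). An overlap of at least 1 bp made peaks shared, and where 1 peak met several the highest was used. Ratios have exact Clopper-Pearson intervals and levels exact Poisson intervals. H3K27ac regions linked by overlaps were summed into loci. The overlap and interval code was tested on simulated data. A rule named 39 of the 65 sites: those shared by LNCaP pGIPZ and PC-3, the 5 strongest of each of those HOXB13 lists, the 3 strongest of each other list and shared sites with a log2 ratio of at least 1 in size. Other sites are named where a count or overlap refers to them. The windows, lists and rules were chosen with earlier results of these data known. Alternatives were a score limit, a tag floor, other membership and overlap rules, tags per bp and centring. A floor on HOXB13 sums and centred intervals were added after seeing the data. Gene positions in hg19 were not analysed here. Calculations used Python 3.11.15, numpy 2.4.6, pandas 2.3.3 and scipy 1.17.1.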

Additional observations from a re-analysis of the deposited data

How the results depend on the processing

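Of 224 values recomputed under the alternatives, 157 stayed within their limits. The sign of a log2 ratio changed in 4. One of these was beyond counting error: LNCaP over PC-3 at A9 became 0.080 relative to the median of all shared sites. The others were within counting error: LNCaP over PC-3 at C23 (0.22 per bp and 0.52 relative to that median) and the H3K27ac sum at HOXD13 (−0.098 relative to the median of all loci). Requiring the peak centre in the window changed none of 51 counts. Values below are ordered HOXA13, HOXC13, HOXD13 where several windows are given.

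With the better-scoring 50% of every list, HOXB13 peaks were 5 at HOXC13 and 1 at HOXD13 in LNCaP pGIPZ, 0 and 0 in shHOXB13, 5 at HOXD13 in WT and 8 at HOXC13 in G84E. HDAC3 had 3, 1 and 1 in shHOXB13, and 1 and 1 at HOXC13 and HOXD13 in pGIPZ. HDAC1 had 1, 1 and 0. ATAC-seq had 1 at HOXC13 and 0 at HOXD13 in shHOXB13, and 0 at HOXD13 in pGIPZ. Control peaks met again at HOXC13 and HOXD13 were 4 and 1 with WT and 2 and 1 with G84E. WT peaks met by G84E at HOXC13 were 7, and HDAC3 peaks called again were 1, 1 and 1.

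With a tag count of at least 8, HOXB13 peaks were 3 at HOXC13 and 1 at HOXD13 in LNCaP pGIPZ, 0, 0 and 0 in shHOXB13, 9 and 4 at HOXC13 and HOXD13 in WT, and 7, 5 and 3 in G84E. HDAC3 in shHOXB13 had 1 at HOXD13, and ATAC-seq had 0, 1 and 0 in shHOXB13 and 0, 0 and 0 in pGIPZ. Control peaks met again at HOXC13 and HOXD13 were 2 and 1 with WT and 2 and 1 with G84E. WT peaks met by G84E were 5 at HOXC13 and 2 at HOXD13. HDAC3 peaks called again were 1 at HOXC13 and 1 at HOXD13, and ATAC-seq peaks called again were 0 at HOXA13 and 0 at HOXC13. The floor on HOXB13 sums and the centred intervals were chosen after seeing the data: over peaks of at least 8, the LNCaP pGIPZ sum was 34.9 at HOXC13 and 8.73 at HOXD13, and centring left 3 G84E over WT intervals below 0. With centres within 100 bp, 5 HOXB13 sites were shared by the lines at HOXA13, without A7. G84E then met 1 control peak at HOXD13 and 1 HDAC3 peak was called again at HOXA13. The H3K27ac log2 ratio was 0.097 at HOXA13 relative to the median of all loci, and 1.07 at HOXD13 with the better-scoring 50% of regions. At HOXD13 that limit kept different loci in the 2 H3K27ac lists. Both limits leave fewer peaks by construction; the cause of the other moves was not tested.

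No paired analysis was possible because each group held 1 library. Intervals cover counting error only. The weakest LNCaP HOXB13 peaks of the windows rest on few tags, so a weak site called in 1 list and not in another is not shown to differ. No library of input DNA entered the calls, and line and antibody cannot be told apart in LNCaP against PC-3.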

Other observations

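Several sites carried a HOXB13 peak in all of LNCaP shHOXB13+G84E, LNCaP shHOXB13+WT, LNCaP pGIPZ and PC-3 pGIPZ. There were 5 at HOXA13 (A5, A7, A8, A9 and A11), 1 at HOXC13 (C23) and 0 at HOXD13. At A7 the LNCaP control and PC-3 peaks overlapped by 10 bp, with centres 330 bp apart. The share of all HOXB13 sites with a peak in each of these lists was not analysed here, so the counts cannot be called high or low. Among these 6 the order differed between the lists: G84E and WT had their highest value at A11 (28.3 in G84E and 41.0 in WT), the LNCaP control at A9 (23.6), and PC-3 at A7 (178.9).

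At A11 the re-expressed forms came closer to PC-3 than the control did, with 28.3 in G84E, 41.0 in WT and 15.1 in pGIPZ, set beside 52.1 in PC-3. The log2 ratio over PC-3 at A11 was −0.88 (−1.24 to −0.52) for G84E and −0.35 (−0.68 to −0.013) for WT, and relative to the median of all sites shared with PC-3 it was −0.094 and 0.33. At A7 the log2 ratio was −3.74 (−4.16 to −3.35) for G84E and −2.83 (−3.16 to −2.52) for WT, but there the peaks overlapped that of PC-3 by 95 bp (G84E), 43 bp (WT) and 10 bp (pGIPZ), with centres 241, 289 and 330 bp apart. The other common sites did not move alike. In the order G84E, WT and pGIPZ, the log2 ratio over PC-3 was −1.21, −0.29 and −1.78 at A5. At A9 it was −1.89, −1.31 and −0.65, with both forms farther from PC-3 than the control. At A8 it was −2.83, −2.26 and −2.68, and at C23 −0.046, 0.36 and −0.21.

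Site C12 had a peak in 7 of the 10 HOXB13, HDAC and ATAC-seq lists, the most of any of the 65 sites, and no HDAC1 peak. An HDAC1 peak of 22.2 at C13 (chr12:54332782-54333098) lay beside it without overlap.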
